A study of Mus musculus with 2 samples.

Results

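The let-7 family genes encode small RNAs of nearly one sequence, and 10 of them were read in newborn mouse hindbrain out of 1973 microRNA (miRNA) genes in the count tables. They were chosen by name: Mirlet7a-1, Mirlet7a-2, Mirlet7b, Mirlet7c-1, Mirlet7c-2, Mirlet7d, Mirlet7f-2, Mirlet7g and Mirlet7i have a row of their own, which makes 9, and Mirlet7e was read from the opposite strand of the gene model Gm25927, which lies across it. Small RNAs of under 30 nucleotides were sequenced from 2 pups of strain B6NCrl at age 0 day, 1 whole hindbrain per library, and the labels record neither a treatment nor the sex. Pup 1 is replicate 1 and pup 3 is replicate 2. Both form 1 group, so no condition was compared with another, and both carry the same donor identifier.

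let-7 was first described as a timing gene of nematode development, and in vertebrates its miRNAs accumulate as progenitor cells, neural ones included, leave the cell cycle and differentiate. A miRNA binds its target messages mainly through its seed, bases 2 to 8, so members with one seed can share targets, among them Hmga2, Lin28 and Ras family messages. In stem and progenitor cells the RNA-binding protein LIN28 holds let-7 down by binding the loop of its precursor. Target messages and LIN28 were not measured here.

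The mature 5′ arm sequences show how little the members differ, with the seed in capitals (RefSeq, GRCm38.p6, 5′ to 3′, all 10 members matched). They are given by mature sequence, so 1 line can stand for a pair of genes.
let-7a, of Mirlet7a-1 and Mirlet7a-2: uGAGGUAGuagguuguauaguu
let-7c, of Mirlet7c-1 and Mirlet7c-2: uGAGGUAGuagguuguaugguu
let-7f, of Mirlet7f-2 and also Mirlet7f-1: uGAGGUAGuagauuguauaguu
let-7b, of Mirlet7b: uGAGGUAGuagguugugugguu
let-7d, of Mirlet7d: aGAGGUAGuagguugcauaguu
let-7e, of Mirlet7e: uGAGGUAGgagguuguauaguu
let-7g, of Mirlet7g: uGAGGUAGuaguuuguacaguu
let-7i, of Mirlet7i: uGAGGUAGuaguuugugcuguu
miR-98, of Mir98, a further gene of the same seed: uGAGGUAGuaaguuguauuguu

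All 10 members have the same 7-base seed and a 22-base mature sequence. Counted from 1 at the 5′ end and against let-7a, let-7c differs by A19G, let-7f by G12A and let-7e by U9G. let-7b carries A17G and A19G, let-7d carries U1A and U16C, and let-7g carries G12U and U18C. let-7i is the farthest from let-7a, with G12U, A17G, U18C and A19U. Every difference thus lies outside the seed.

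Levels are given in CPM, a gene's counts on its own strand scaled to 1000000 such counts summed over all miRNA genes in that library. Those sums were 4906127 in pup 1 and 6238680 in pup 3, so a count of 0 would allow up to 0.611 and 0.481 CPM (3 counts of the total, counting error only). Reads that matched several genomic places, 37.9% of all reads in pup 1 and 39.4% in pup 3, were given to no gene in the tables. Of the marker lists for tissue identity, the neuronal list had 8 of 11 counted genes detected and summed to 38971 and 33090 CPM in pups 1 and 3, and the Hox-cluster list of hindbrain and spinal cord had 5 of 6 and summed to 52557 and 34978 CPM. The vessel list reached 55322 and 65476 CPM with all 3 detected, while erythroid, leukocyte, muscle and liver lists summed to at most 842 CPM (leukocyte, pup 1). The most abundant genes were Mir149 for neurons (16574 and 12303 CPM), Mir10a for the Hox clusters (32189 and 24602) and Mir126a for vessels (47819 and 55787). A sum can thus rest largely on 1 gene, and sums do not rank tissues against each other. The neuronal, Hox-cluster and muscle lists include copies of the same miRNA, whose counts leave out reads that match several places. Within the muscle list, Mir206 had 172 and 157 CPM in pups 1 and 3, while Mir1a-1, Mir133a-1 and Mir133a-2 were at 0 in both. Because of the reads left out, a 0 here does not show that the miRNA was absent. In whole tissue, a level cannot separate how many cells make a miRNA from how much each cell makes.

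The 9 let-7 genes with a row took 12.3% of own-strand counts in pup 1 (604264 counts, exact Clopper-Pearson 95% interval 12.29 to 12.35) and 13.3% in pup 3 (828403 counts, 13.25 to 13.31), a mean of 12.8% ± 0.680 (SD, n = 2). The opposite-strand counts of Mirlet7e, 33868 and 40553, are not part of the own-strand sums. Set against the same sums, the 10 members came to 13.01% in pup 1 and 13.9% in pup 3 (mean 13.5% ± 0.652), and with the Mirlet7e counts added to the sums too the mean was 13.4% ± 0.651. Detection was set at 2 CPM in each pup, and all 10 members passed it, as did 20.6% of all counted genes and 38.3% of those with a Mir symbol. At 1000 CPM in both pups stood 6 members, against 4.92% of all counted genes. The median of the members' mean levels was 4811 CPM, beside 178 CPM over the 407 detected genes with a row. Library preparation captures some small RNAs more readily than others, so levels of different members also carry capture.

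Mirlet7g, in an intron of Wdr82, a subunit gene of histone methyltransferase complexes, had the highest count of the 10 members. Its level was 55827 CPM in pup 1 and 65360 in pup 3 (60594 ± 6741, SD, n = 2) and ranked 2 among all genes in each pup. Mirlet7i, over an exon of the transcribed pseudogene D630033A02Rik, had 39876 CPM in pup 1 and 44408 in pup 3 (42142 ± 3205) and ranked 5 in each. Both are solitary genes, with no other miRNA gene within 10 kb, and both were higher in pup 3. Together they made up 73.6% of the let-7 counts in pup 1 and 78.8% in pup 3. Reads at several genomic places, which include any that match 2 let-7 genes alike, are not among these counts.

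Mirlet7b had 13986 CPM in pup 1 and 11781 in pup 3 (12884 ± 1559). Mirlet7d had 8050 and 7622 CPM (7836 ± 303), and Mirlet7e, by the opposite-strand reading, had 6903 and 6500 CPM (6702 ± 285). These sit in clusters with other miRNA genes, and each was slightly higher in pup 1 in CPM. No read lay on the strand of Gm25927 itself in either pup (0 and 0 counts), so all reads over that model were on the strand of Mirlet7e. Against these 5 genes, Mirlet7f-2 stood lower, at 3153 CPM in pup 1 and 2688 in pup 3 (2921 ± 328). It shares its mature sequence with Mirlet7f-1, so its count leaves out reads that match both.

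The 4 remaining members had low counts. Each shares its mature 5′ arm with another let-7 gene, and reads that match both are left out. Mirlet7c-2 had 1215 CPM in pup 1 and 389.5 in pup 3 (802 ± 584), and Mirlet7c-1 had 566 and 314 CPM (440 ± 178). Mirlet7a-1 had 307 and 113 CPM (210 ± 137), and Mirlet7a-2 had 185 and 108 CPM (147 ± 54.5). Each of these 4 was lower in pup 3, and together they made up 1.75% of the let-7 counts in pup 1 and 0.664% in pup 3.

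The descending order g, i, b, d, e, f-2, c-2, c-1, a-1, a-2 was the same in both pups. It was also the same when means were divided by the length of the gene model, which ran from 83 bases for Mirlet7f-2 to 103 for Mirlet7d. Of the 9 pairs of neighbours in this order, 7 had pup values that did not overlap. Mirlet7c-2 and Mirlet7c-1 overlapped, as did Mirlet7a-1 and Mirlet7a-2, so within those 2 pairs the spread between pups was as wide as the gap. Mirlet7c-1 and Mirlet7a-1 missed an overlap narrowly, with 314 CPM as the lower value of the former and 307 CPM as the higher value of the latter. Mirlet7d and Mirlet7e were also close, with means 1.17-fold apart.

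**Figure D1:**
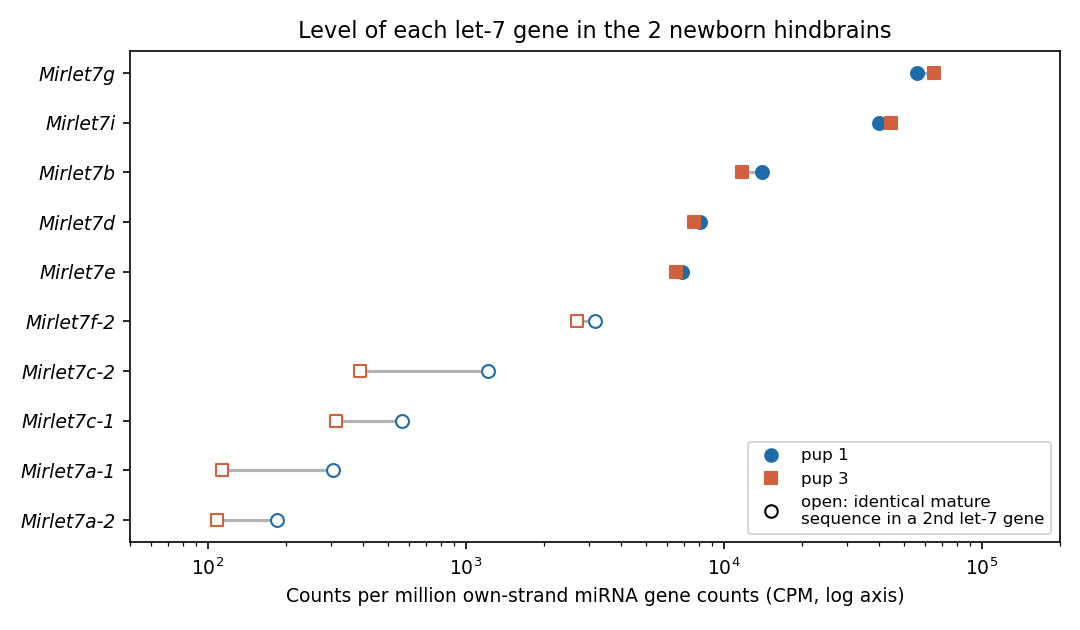
Level of each let-7 gene in CPM (log axis) in pup 1 (circles) and pup 3 (squares), 1 point per library, with the grey line joining a gene's 2 values. Open symbols mark genes whose mature 5′ arm sequence also occurs in a second let-7 gene; these 5 fill the lower part of the order, from Mirlet7f-2 at 3153 CPM down to Mirlet7a-2 at 108 CPM.

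The level of a member went with whether its mature sequence is its own. let-7a, let-7c and let-7f each occur in 2 hairpins, and the 5 members that carry them had means from 147 to 2921 CPM. The 5 members with a mature sequence found in 1 hairpin, Mirlet7g, Mirlet7i, Mirlet7b, Mirlet7d and Mirlet7e, had means from 6702 to 60594 CPM, with no overlap between the sets. Members with a shared sequence made up 4.17% of the let-7 counts in pup 1 and 2.59% in pup 3 (mean 3.38% ± 1.12). A read of exactly the shared bases matches 2 places, and reads at several places are in the tables' row that names no gene. How many of those reads were let-7 cannot be read from the tables, so these 5 levels leave such reads out and do not rank let-7a, let-7c and let-7f against the rest.

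Where copies of one mature sequence differ can be seen in their precursors, shown for the let-7a pair because its genes were the lowest, with the mature 5′ arm in capitals (RefSeq, GRCm38.p6). Mirlet7a-1 lies at chr13:48538179-48538272 on the minus strand and Mirlet7a-2 at chr9:41536716-41536811 on the plus strand.
Mirlet7a-1: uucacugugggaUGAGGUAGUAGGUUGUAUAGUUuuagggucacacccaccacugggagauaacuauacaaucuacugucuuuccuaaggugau
Mirlet7a-2: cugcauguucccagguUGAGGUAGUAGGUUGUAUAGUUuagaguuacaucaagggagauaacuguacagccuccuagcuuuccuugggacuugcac

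The first base before the mature arm differs between these copies, and after it 1 base is shared and base 2 differs. The let-7c copies diverge at the same places. The let-7f copies differ at base 1 on either side, so there a read 1 base longer than the mature arm differs between the copies.

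The opposite, 3′ arm gives a further view of the copies. The 3′ arm of Mirlet7a-1 is identical to that of Mirlet7c-2, and both read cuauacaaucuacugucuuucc. In these 2 genes each arm therefore occurs in another let-7 hairpin. The 3′ arms of Mirlet7a-2, Mirlet7c-1 and Mirlet7f-2 occur in no other hairpin of the RefSeq table, which holds 1005. Counts are per gene, and how they divide between the arms was not measured.

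The loop between the arms is where LIN28 binds, and the motif GGAG there is the one its zinc knuckles are known to recognise. Searched in the strand of the precursor, GGAG was found between the arms in 8 of 10 members, all but Mirlet7b and Mirlet7c-2, against 8.07% of the 644 mouse hairpins with a product listed on each side. The motif GAU was found in 8 of 10, all but Mirlet7c-1 and Mirlet7c-2, against 15.7%. The stretch between the arms was longer than usual, with a median of 28.5 bases in the members and 16 over the 644 hairpins. The counts of the motifs are not separate. In Mirlet7a-1, Mirlet7a-2, Mirlet7e, Mirlet7f-2 and Mirlet7i the only GAU between the arms overlaps GGAG, in the letters GGAGAU. The windows say nothing of LIN28 itself.

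Of the 10 members, 8 lie in genomic clusters with related miRNA genes (GENCODE M21, GRCm38, the assembly of mm10). On chromosome 16, Mirlet7c-1 (ENSMUSG00000065557.2, 77599657 to 77599750, plus strand) lies 656 bases after Mir99a, and both are in introns of the noncoding gene Mir99ahg, as is Mir125b-2. On chromosome 9, Mirlet7a-2 (ENSMUSG00000092770.1) lies 5211 bases after Mir100 and 45114 before Mir125b-1, in introns of the noncoding 3110039I08Rik. On chromosome 17, Mirlet7e (17830352 to 17830444, plus strand) lies 94 bases after Mir99b and 367 before Mir125a, in an intron of Spaca6, a gene needed for fusion of sperm and egg. These 3 clusters repeat one arrangement, a miR-99 or miR-100 gene, then a let-7 gene, then a miR-125 gene.

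Within those clusters the let-7 gene had the lowest count of the 3 in both pups. Mir99a had 129913 and 162661 CPM in pups 1 and 3, which was 229.6 and 519 times Mirlet7c-1, and Mir125b-2 had 2431 and 2610 CPM. Mir100 had 22112 and 27741 CPM, which was 119 and 257 times Mirlet7a-2, and Mir125b-1 had 2382 and 2692 CPM. Around Mirlet7e, whose mature sequence is its own, the gap was small. Mir99b had 17208 and 14533 CPM, or 2.49 and 2.24 times Mirlet7e, and Mir125a had 14667 and 8046 CPM, or 2.12 and 1.24 times. Mir125b-1 and Mir125b-2 share the mature miR-125b sequence, so their counts too leave out reads that match both.

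The other clusters hold let-7 genes only, or let-7 and Mir98. On chromosome 13, Mirlet7a-1 (ENSMUSG00000065421.2) and Mirlet7d (ENSMUSG00000065453.1, 48536012 to 48536114, minus strand) lie 2064 bases apart over exons of the noncoding 6720427I07Rik. Mirlet7d had 26.3 times the counts of Mirlet7a-1 in pup 1 and 67.2 times in pup 3. On chromosome 15, Mirlet7c-2 (ENSMUSG00000065608.1, 85706603 to 85706697) and Mirlet7b (ENSMUSG00000065564.1, 85707319 to 85707403) lie 621 bases apart on the plus strand over exons of Lncppara. Mirlet7b had 11.5 times the counts of Mirlet7c-2 in pup 1 and 30.2 times in pup 3. In both clusters the gene with a mature sequence of its own had the higher count, and its distance from the other was wider in pup 3.

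On chromosome X, Mirlet7f-2 (ENSMUSG00000065602.1, 151912346 to 151912428) and Mir98 lie 785 bases apart within Huwe1, a ubiquitin ligase gene, in introns and on the plus strand. Mir98 had 4679 CPM in pup 1 and 5381 in pup 3, or 1.48 and 2.00 times Mirlet7f-2. Of the other genes with the let-7 seed in the RefSeq table, Mir1961 had 0 counts in both pups, and Mir7k, of the 19-base let-7k, had 3 and 4 counts, near the limit that a count of 0 allows (both genes were chosen with their values in view). The solitary Mirlet7g (ENSMUSG00000065440.1) lies at chromosome 9, 106178840 to 106178927, on the plus strand, and Mirlet7i (ENSMUSG00000065406.2) at chromosome 10, 122985640 to 122985724, on the minus strand.

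**Figure D2:**
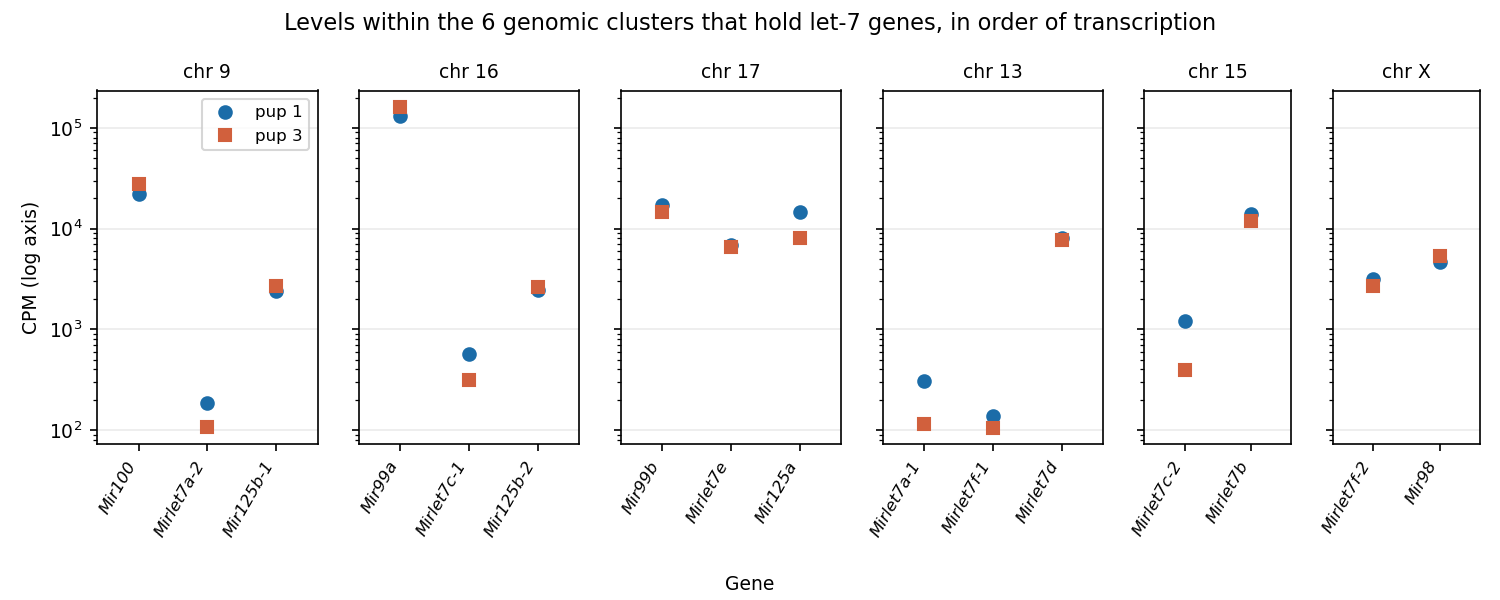
CPM (log axis) of each miRNA gene in the 6 clusters that hold let-7 genes, in the order of transcription, in pup 1 (circles) and pup 3 (squares), 1 point per library. Mirlet7a-2 and Mirlet7c-1 lie under both partners, while Mirlet7e, at 6903 and 6500 CPM, lies near Mir99b and Mir125a; Mirlet7e and Mirlet7f-1 are read from the opposite strand of other gene models.

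The members did not differ alike between the libraries. Per gene, an exact binomial test of the 2 counts, two-sided and adjusted by Benjamini-Hochberg over 509 features, called a gene when the adjusted p was under 0.05 and the libraries differed at least 2-fold. It compares these libraries, not conditions, and covers counting error only, since 1 pup per library leaves no estimate of the spread between animals. Differences are log2 values of pup 3 over pup 1 on TMM effective library sizes with a pseudocount of 1 CPM. Library totals in their place lower every value by 0.14.

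Mirlet7c-2 and Mirlet7a-1 were called, both lower in pup 3, with no member called higher. Over all tested features, 5.70% were called lower and 0.982% higher. Mirlet7c-2 had 5962 counts in pup 1 and 2430 in pup 3, a log2 difference of -1.50 (SE 0.03, exact binomial test, adjusted p below 1e-300). Mirlet7a-1 had 1504 and 708 counts, a log2 difference of -1.29 (SE 0.07, exact binomial test, adjusted p = 4.63e-92). These are the 2 members in which each arm occurs in another let-7 hairpin. Outside the family, 3 tested genes had every arm in another miRNA gene. All 3 were lower in pup 3, with a median log2 difference of -0.41, and 0 were called (exact binomial test, 1 lower at an adjusted p under 0.05 at any fold). Their median level was only 6.87 CPM, beside 506 CPM over Mirlet7c-2 and Mirlet7a-1. Of 42 genes with some arm but not every arm in another miRNA gene, 27 were lower and 9 were called lower. Among all 509 tested features, 264 were lower in pup 3. Both of these sets by arm were examined after the let-7 values were seen. Mirlet7c-2 and Mirlet7a-1 stayed called on library totals and with DESeq2 size factors.

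Mirlet7c-1 and Mirlet7a-2, which share only the 5′ arm, were also lower in pup 3 but by less than 2-fold. Mirlet7c-1 had 2776 counts in pup 1 and 1957 in pup 3, a log2 difference of -0.71 (SE 0.04, exact binomial test, adjusted p = 4.83e-63). Mirlet7a-2 had 908 and 674 counts, a log2 difference of -0.63 (SE 0.07, exact binomial test, adjusted p = 1.07e-17). Mirlet7f-2, which also shares only its 5′ arm, was near even at -0.09 (SE 0.02). At a 1.5-fold threshold, Mirlet7c-1 and Mirlet7a-2 joined the calls, which made 4 members lower and 0 higher (exact binomial test), where 10.6% of tested features were called lower and 3.93% higher. With DESeq2 size factors the difference of Mirlet7f-2 was -0.00095 and its adjusted p in the exact binomial test was 1.00.

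Among members with a mature sequence of their own, differences were small. Mirlet7g was higher in pup 3 by 0.37 (SE 0.0036) and Mirlet7i by 0.29 (SE 0.0043), and both kept that direction on every scaling. Mirlet7b was at -0.11 (SE 0.0077). Mirlet7d and Mirlet7e were at 0.06 and 0.05 (SE 0.01 each), but at -0.079 and -0.087 on library totals, so they had no direction that holds across scalings. All 10 members passed the adjusted p at any fold, 6 lower and 4 higher, as 23.8% and 24.0% of tested features did in those directions. At these depths even a difference of a few percent exceeds counting error, and passing it says nothing of a difference between animals.

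**Figure D3:**
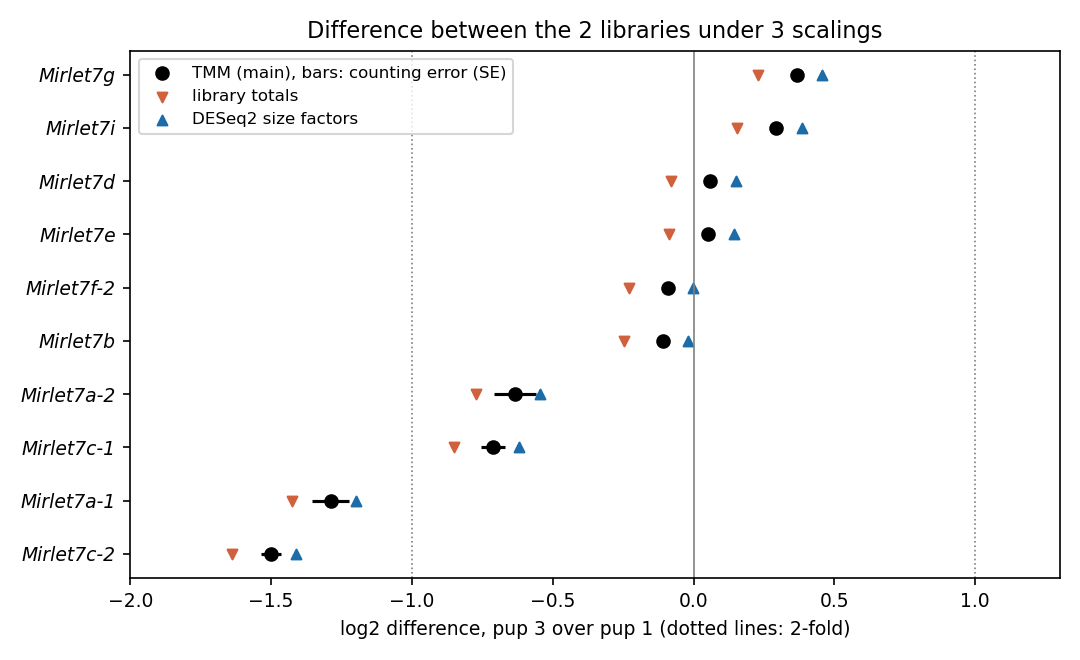
Log2 difference of each let-7 gene, pup 3 over pup 1, on TMM scaling (black circles, bars give the SE from counting), on library totals (orange triangles) and with DESeq2 size factors (blue triangles). Mirlet7c-2 and Mirlet7a-1 lie beyond the dotted 2-fold line under all 3 scalings, and Mirlet7d and Mirlet7e change sign with the scaling.

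On TMM scaling, the median log2 difference was -0.71 over the 5 members with a shared mature sequence, all lower in pup 3. Over the 5 others it was 0.06, with 1 lower, and over all 509 tested features it was -0.02. This split depends on the scaling. On library totals, Mirlet7b, Mirlet7d and Mirlet7e were all lower, at -0.25, -0.079 and -0.087. With DESeq2 size factors, Mirlet7f-2 was near even at -0.00095. Outside the family, 50 tested genes have a mature sequence that also occurs in another miRNA gene of the RefSeq table (a set examined after the let-7 values were seen). Of these, 32 were lower in pup 3, 9 were called lower and 0 higher, with a median of -0.13. Of the 403 tested genes whose sequences occur once, 205 were lower, 14 were called lower and 4 higher, with a median of -0.0047. Of the 50 genes, 18 were higher in pup 3. The miR-125b copies Mir125b-1 and Mir125b-2 were higher there by 0.31 (SE 0.02) and 0.24 (SE 0.02). The reads at several places, 4601400 in pup 1 and 5639848 in pup 3, were 0.938 and 0.904 times the own-strand gene counts. Their part in these differences was not tested.

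**Figure D4:**
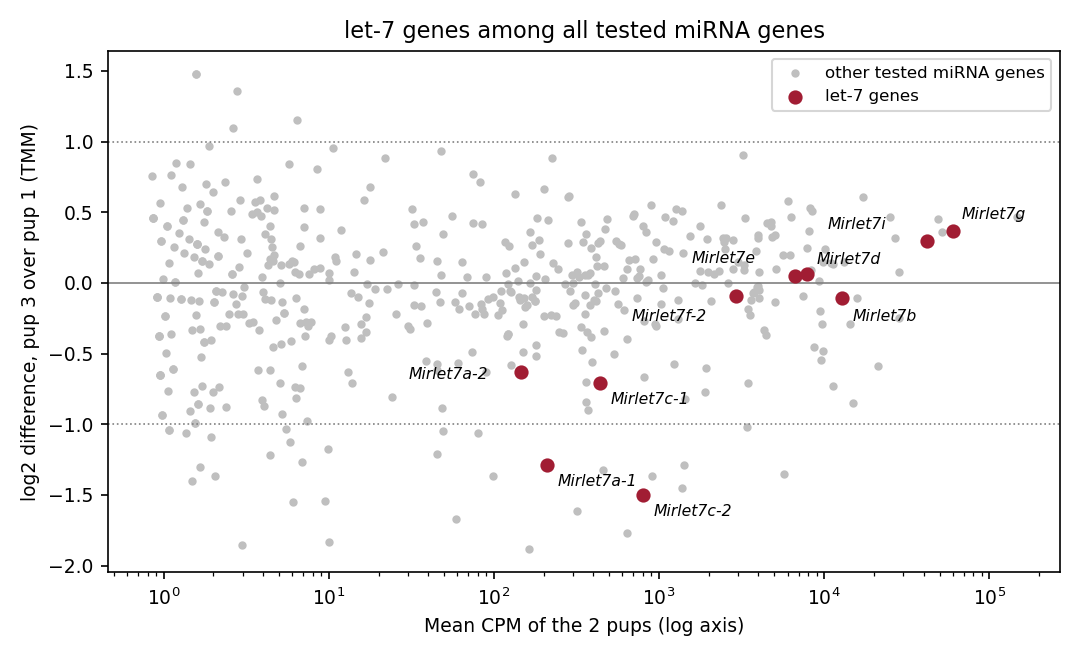
Log2 difference (pup 3 over pup 1, TMM scaling) against mean CPM (log axis) for the 509 tested features, each point 1 miRNA gene, with let-7 genes in red and dotted lines at 2-fold. Mirlet7c-2 at -1.50 and Mirlet7a-1 at -1.29 lie under the lower line, while Mirlet7g and Mirlet7i lie at the upper end of the level range and above 0.

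Cluster partners did not all move with their let-7 gene. In pup 3, Mir99a was higher by 0.46 (SE 0.0023) where Mirlet7c-1 was at -0.71, and Mir100 was higher by 0.47 (SE 0.0056) where Mirlet7a-2 was at -0.63. Around Mirlet7e at 0.05, Mir99b was at -0.11 (SE 0.0069) and Mir125a at -0.73 (SE 0.0084). Mir98 was higher by 0.34 (SE 0.01) where Mirlet7f-2 was at -0.09. On TMM scaling, genes within 1 host thus differed in direction between the libraries. On library totals Mirlet7e was at -0.087, and Mir99b and Mir125a, at 0.845 and 0.549 times in CPM, were lower too. Mirlet7c-1, Mirlet7a-2 and Mirlet7f-2 share a mature sequence, so their values leave out reads that match 2 genes. The part of those reads in these differences was not tested. None of the 6 partners passed 2-fold.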

How the data were processed

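Per the labels, microRNA-seq was done on total RNA from 2 hindbrains. The authors deposited 1 table per library of raw read counts for each miRNA gene, neither normalized nor pooled, with columns for any strand, the gene's own strand and the opposite strand. Per the text files deposited beside them, the assembly was mm10 and the annotation M4. Aligner and counter were not given in the sources used here. Rows that name no gene (58.3% of reads in pup 1 and 54.9% in pup 3: unmapped, at several places, in no feature) stayed out of totals and tests.

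Of 1973 IDs, 1894 matched GENCODE M21 without version, which gave symbols, positions and hosts. Hairpins and mature sequences came from RefSeq. Mirlet7e was added to the table as 1 further feature. TMM factors came from edgeR 4.0.16, alternative size factors from DESeq2 1.42.0, and tests from scipy 1.17.1. The exact binomial test used features with 10 or more counts in sum and the ratio of TMM effective sizes (1.16, pup 3 over pup 1). It was also run on simulated counts with counting error only, scaled by library totals. That run cannot speak to spread between animals or to TMM scaling. Intervals cover counting error only and take each read as 1 molecule.

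The members, lists and tests were chosen with earlier results of these data known. Named genes are the members, Mir98, miRNA genes within 10 kb, the cluster partners and the marker lists. Alternatives were strand, denominator, scaling, filter, pseudocount, fold, detection level, members and leaving out each pup. Whether the pups are separate litters is not recorded.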

Additional observations from a re-analysis of the deposited data

Results flagged for a closer look

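Mirlet7f-1, the third let-7 gene of the chromosome 13 cluster, has no row of its own and was in no test. On the opposite strand of the gene model Gm24111, which lies across it, it had 681 counts in pup 1 and 653 in pup 3, or 139 and 105 CPM, above the 0.611 and 0.481 CPM that a count of 0 allows. The strand of Gm24111 itself had 2 and 3 counts. Read this way, Mirlet7f-1 would be the lowest let-7 gene by mean, at 122 ± 24.1 CPM (SD, n = 2), against 2921 CPM for Mirlet7f-2 with the identical mature sequence.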

How the results depend on the processing

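The number of detected members was 10 at detection levels of 1, 10 and 100 CPM in both pups. The calls of Mirlet7c-2 and Mirlet7a-1 were the same 2 with library totals, DESeq2 size factors and filters of 1 or 100 counts; at 1.5-fold 4 members were called (74 of 509 features in all), and at any fold 10 (243 in all). The share of the family was 12.8% without Mirlet7e, and ran from 13.01% to 13.9% when each pup was left out; the share of members with a shared mature sequence then ran from 2.59% to 4.17%. The median member level was 2018 CPM with all reads of the table as the denominator, and from 4594 to 5028 CPM without each pup; for the partners it ran from 11289 to 15938 CPM. The median log2 difference of the members, -0.10, was -0.24 on library totals and -0.0098 with DESeq2 size factors. Single members reversed on library totals only: Mirlet7d at -0.079 and Mirlet7e at -0.087. No paired analysis was possible because there is 1 group. Differences between animals cannot be tested with 2 libraries of 1 group.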
